A study of Homo sapiens with 24 samples.

Results

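NEAT1, the long noncoding RNA around which paraspeckles assemble, and 8 genes for proteins of these nuclear bodies were followed through 10 RNA-seq libraries of HEK293T cells, a human embryonic kidney line. The 9 genes were picked out by symbol from 58884 listed genes, and each had a single entry and passed the filter on low values in both tables. NEAT1 was chosen by its measured difference between SETD2 C and the other groups of the second table, and the 8 proteins (SFPQ, NONO, PSPC1, RBM14, HNRNPK, DAZAP1, HNRNPH3 and SMARCA4) were named for their known roles with those results in view. The values of the second table are therefore a description of these genes, with no test of them.

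SETD2 is the methyltransferase that trimethylates lysine 36 of histone H3 over transcribed genes. The first table holds 2 libraries of unmodified cells (WT) and 2 of cells in which endogenous SETD2 was knocked out (KO), and the second holds 2 of KO cells, 2 of KO cells given full-length SETD2 (FL) and 2 of KO cells given the fragment labelled N3, residues 1404 to 2564 (SETD2 C). The KO background is common to all 6 libraries of the second table, but only FL and C cells were transfected, and the KO libraries are labelled untreated. Transfection and the construct cannot be told apart in a comparison with KO, whereas C against FL compares 2 transfected groups. Whether the KO cells were a single clone is not given in the sources used here, nor whether replicates were separate cultures, so p-values measure only the spread between these libraries.

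The deposited unit is TPM, a transcript's share of a library after division by its length, which keeps no sequencing depth. TPM of SETD2 was 12.6 to 16.3 in WT and KO of the first table, so this gene-level value does not check the KO label. In the second table it was 12.0 and 12.2 in KO, 439 and 422 with FL, and 1329 and 1264 with C, and this gene-level value makes no allowance for the shorter length of the C construct. Mitochondrially encoded transcripts took 2.93% and 3.37% of TPM with C, against 6.23% to 10.95% in the other libraries of the second table, and 23.2% in WT replicate 1 against 12.0% to 14.1% in the rest of the first. Of the HEK293T markers, NEFL (44.3 to 168 TPM) and NEFM (111 to 341) were present and PAX2 and LHX1 low (0.62 to 2.21), while PTPRC, CD3E, ALB, PECAM1 and DCN stayed at or below 0.43 TPM and COL1A1 lay between 6.43 and 12.1.

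Paraspeckles form where NEAT1 is transcribed. The gene makes a short polyadenylated RNA and, when the RNA polymerase reads through the first polyadenylation site, a long RNA that is cut by RNase P and ends in a triple helix instead of a poly(A) tail. The long form is the scaffold. SFPQ and NONO coat and stabilise it, HNRNPK favours it by blocking the early polyadenylation machinery, and RBM14, DAZAP1, HNRNPH3 and the chromatin remodeller SMARCA4 are needed to build the body. These bodies retain some RNAs and proteins in the nucleus and grow under many kinds of stress.

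NEAT1 (ENSG00000245532) spans positions 65422774 to 65445540 of chromosome 11 (GRCh38, plus strand), and GENCODE 44 gives it 9 transcripts. The reference transcript is a single exon of 22743 nt, and the other 8 end at or before position 65426513, which leaves 19027 bases covered only by the long form. The 2 ends are shown because the deposited gene-level TPM adds the forms together. For the short form the window is the end of NEAT1-208 and NEAT1-209, which reach furthest. The other short transcripts end earlier, some of them before this window. In the first window the capitals mark the polyadenylation signal AATAAA and TGTA, the motif bound by the cleavage factor that HNRNPK opposes. In the second they mark runs of TTTT and of AAAA, the kinds of tract that pair in the triple helix. Letters are those of the GENCODE transcripts, 5′ to 3′, plus strand.
End of the short transcripts, chr11:65426414-65426513: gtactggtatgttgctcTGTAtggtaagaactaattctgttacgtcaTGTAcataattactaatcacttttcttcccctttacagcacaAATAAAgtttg
End of the long transcript, chr11:65445441-65445540: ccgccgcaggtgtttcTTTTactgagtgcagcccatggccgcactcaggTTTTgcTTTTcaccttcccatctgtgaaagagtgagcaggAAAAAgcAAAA

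Only the RNA strand was searched, with overlapping matches counted. AATAAA begins at position 90 of the first window, and TGTA begins at positions 18 and 48. The second window has no AATAAA, holds TTTT 3 times, and ends in an A-rich tract that begins at position 90. Among the last 100 bases of the reference transcripts of 18853 lncRNA genes, 38.6% hold AATAAA, 38.2% TGTA, 48.7% TTTT and 61.0% AAAA, so each motif alone is common. These libraries were made after ribodepletion and poly(A) enrichment, and how fully the long form, which has no poly(A) tail, was recovered was not tested. The protein genes lie apart from it and from each other in GRCh38. The genes of the DBHS family of RNA-binding proteins are SFPQ (ENSG00000116560) on chromosome 1, 35176378 to 35193446, minus strand, NONO (ENSG00000147140) on chromosome X, 71254814 to 71301522, plus strand, and PSPC1 (ENSG00000121390) on chromosome 13, 19674752 to 19783019, minus strand. RBM14 (ENSG00000239306) shares chromosome 11 with NEAT1, at 66616626 to 66629934 on the plus strand. The remaining genes are HNRNPK (ENSG00000165119) on chromosome 9, 83968083 to 83980631, minus strand, DAZAP1 (ENSG00000071626) on chromosome 19, 1407569 to 1435687, plus strand, HNRNPH3 (ENSG00000096746) on chromosome 10, 68331174 to 68343193, plus strand, and SMARCA4 (ENSG00000127616) on chromosome 19, 10960932 to 11079426, plus strand.

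NEAT1 stood at one level in KO and FL cells and at another with SETD2 C. Its TPM was 110 and 112 in KO, 121 and 117 with FL, and 578 and 758 with C. The C libraries lay far above the other 4, and the KO and FL pairs were close together without overlapping. On the log2 scale of the scaled values, C exceeded KO by 2.43 (SE 0.11, n = 2 and 2), a 5.38-fold difference, and FL by 2.34 (SE 0.11), a 5.06-fold difference. In bulk RNA of a transfected culture, more NEAT1 per cell and more cells rich in NEAT1 cannot be told apart. FL exceeded KO by 0.09 (SE 0.11), less than its standard error. The order of the groups was KO, FL, C, and only C stood apart from its neighbour in that order by more than the spread. Over 15 alternative settings the difference between C and KO ranged from 2.24 to 2.62.

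Relative rank also set C apart from KO and FL, without any scaling. NEAT1 was at the 93.0 to 93.7 percentile of tested genes in KO and FL, and at 98.7 and 99.0 with C. The ratio of NEAT1 TPM to SFPQ TPM, in which library scaling cancels, was 0.658 and 0.740 in KO, 0.579 and 0.543 with FL, and 2.74 and 3.43 with C. NEAT1 TPM was thus below that of SFPQ in KO and FL and above it with C. By this ratio FL lay below KO. SFPQ TPM was itself higher with FL and with C than in KO, so the ratio also carries the SFPQ differences. The mitochondrial share moved with the same groups. With mitochondrial genes and SETD2 removed before rescaling, NEAT1 remained within the range given above.

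**Figure D1:**
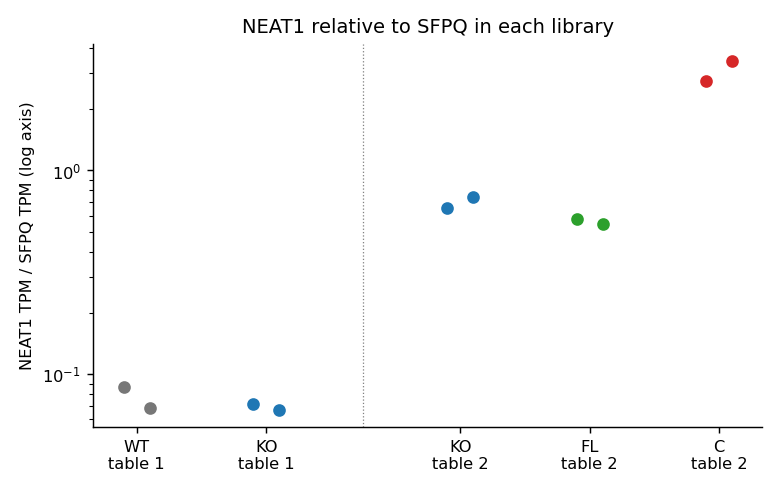
NEAT1 TPM divided by SFPQ TPM in each library, on a log axis, with 1 point per library (2 per group). The C libraries, at 2.74 and 3.43, lie above the KO (0.658 and 0.740) and FL (0.579 and 0.543) libraries of the second table. The first table, which carries another batch label, lies between 0.0667 and 0.0869.

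NEAT1 was not called different between WT and KO. Its TPM was 55.0 and 51.8 in WT and 57.1 and 58.4 in KO. The 2 groups overlap after scaling. The log2 difference, KO minus WT, was -0.02 (SE 0.11, 95% interval from -0.29 to 0.25, limma with Benjamini-Hochberg adjusted p = 0.94), and its sign turned without scaling (0.11) and without WT replicate 1 (0.14). The interval does not include a doubling in either direction.

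Among the core proteins of the DBHS family, the FL and C libraries lay above KO for SFPQ and PSPC1, and neither group lay above KO for NONO after scaling. SFPQ, which binds NEAT1 along its length, had a TPM of 167 and 151 in KO, 209 and 216 with FL, and 211 and 221 with C. Both transfected groups lay above KO and overlapped each other in TPM. The log2 difference was 0.40 (SE 0.06) for FL and 0.30 (SE 0.06) for C against KO, and C minus FL was -0.11 (SE 0.06), a sign that turned without scaling. NONO, its partner, had a TPM of 582 and 546 in KO, 514 and 538 with FL, and 647 and 615 with C. Its C and KO libraries overlapped after scaling, with a log2 difference of 0.01 (SE 0.05). PSPC1, the third DBHS protein, had a TPM of 24.3 and 21.9 in KO, 26.2 and 28.5 with FL, and 35.7 and 34.0 with C. The 3 pairs did not overlap and lay in that order, with log2 differences against KO of 0.22 (SE 0.07) for FL and 0.44 (SE 0.07) for C.

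The proteins required to assemble the body split. RBM14, whose prion-like domain helps to hold paraspeckles together, had a TPM of 32.7 and 29.7 in KO, 39.4 and 40.2 with FL, and 49.8 and 45.5 with C. Its pairs were separate and in the order KO, FL, C, and the log2 differences against KO were 0.33 (SE 0.07) for FL and 0.46 (SE 0.07) for C. HNRNPH3, an RNA-binding protein of the hnRNP H family, had a TPM of 301 and 265 in KO, 269 and 311 with FL, and 415 and 458 with C. Its KO and FL libraries overlapped and C lay above both, by 0.48 (SE 0.08) over KO and 0.46 (SE 0.08) over FL on the log2 scale. DAZAP1, another RNA-binding assembly factor, lay between 128 and 154 TPM in all 6 libraries, with a log2 difference of -0.06 (SE 0.06) for C against KO that turned positive without scaling.

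HNRNPK had a TPM between 595 and 647 in all 6 libraries of the second table. Its log2 difference between C and KO was -0.14 (SE 0.05) after scaling and turned positive without it. SMARCA4, the ATPase of SWI/SNF complexes, had a TPM of 118 and 111 in KO, 111 and 114 with FL, and 104 and 109 with C. The C libraries were the lowest pair, with log2 differences of -0.25 (SE 0.05) against KO and -0.20 (SE 0.05) against FL. SMARCA4 was no longer called lower than KO without KO replicate 2, without C replicate 1, without scaling, or with TPM rescaled without mitochondrial genes and SETD2.

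**Figure D2:**
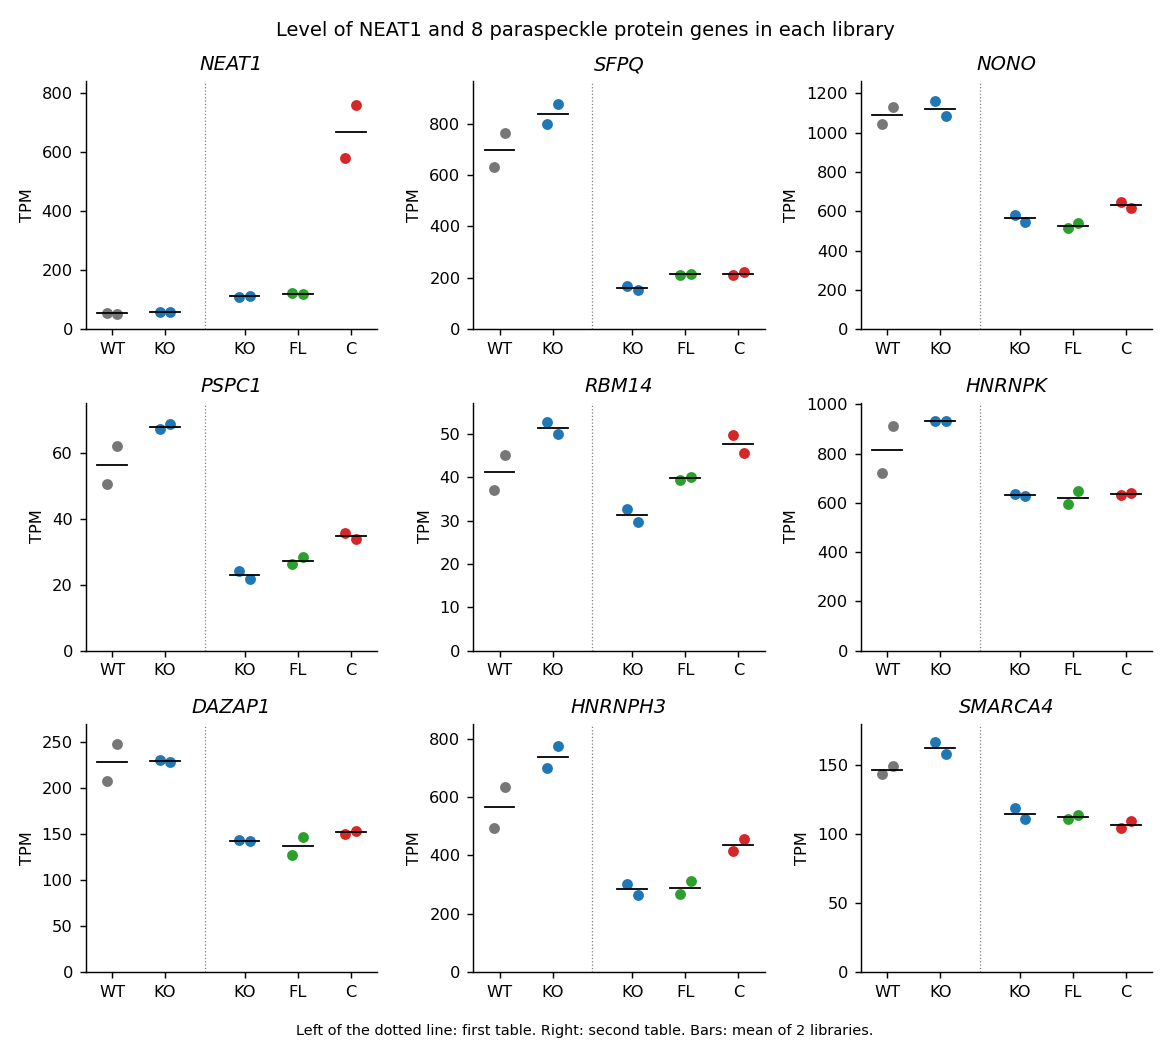
TPM of NEAT1 and the 8 protein genes in each library, on axes that start at 0, with a point per library and a bar at the mean of 2 libraries. The first table (WT, KO) is left of the dotted line and the second (KO, FL, C) right of it, and levels are not compared across the line. NEAT1 with C, at 578 and 758 TPM, stands far above its other libraries, while the protein genes differ by smaller steps.

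Read as calls at an adjusted p of 0.05 or less in limma, which for these genes is a description and no test, 5 of the 9 (NEAT1, SFPQ, PSPC1, RBM14 and HNRNPH3) were higher with C than KO and SMARCA4 was lower. In that comparison 21.1% of 15924 tested genes were called higher and 15.1% lower. Without scaling these shares were 34.6% and 7.00%, with quantile normalization 15.6% and 17.3%, without C replicate 1 13.4% and 11.2%, without C replicate 2 11.3% and 8.64%, and without KO replicate 4 14.2% and 10.0%. Since the comparison had a part in the choice of the genes, nothing is read from their count. At a fold change of at least 2 in addition, only NEAT1 was called, against 4.06% of all tested genes. For C against FL, NEAT1, HNRNPH3 and PSPC1 were called higher and SMARCA4 lower, against 21.4% and 16.8% of all genes, and again NEAT1 alone at 2-fold, against 3.79%. Without scaling, the shares for C against FL were 32.6% and 9.47%, and 17.0% and 19.1% with quantile normalization. The PSPC1 and SMARCA4 calls against FL were each lost when FL replicate 3, FL replicate 4, C replicate 1 or C replicate 2 was left out. FL against KO gave no call among the 9 genes, against 0.176% higher, 0.0314% lower and 0.0816% at 2-fold of all genes. An unadjusted p under 0.05 was found for 3 of the 9 and for 2534 of all 15924 tested genes.

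**Figure D3:**
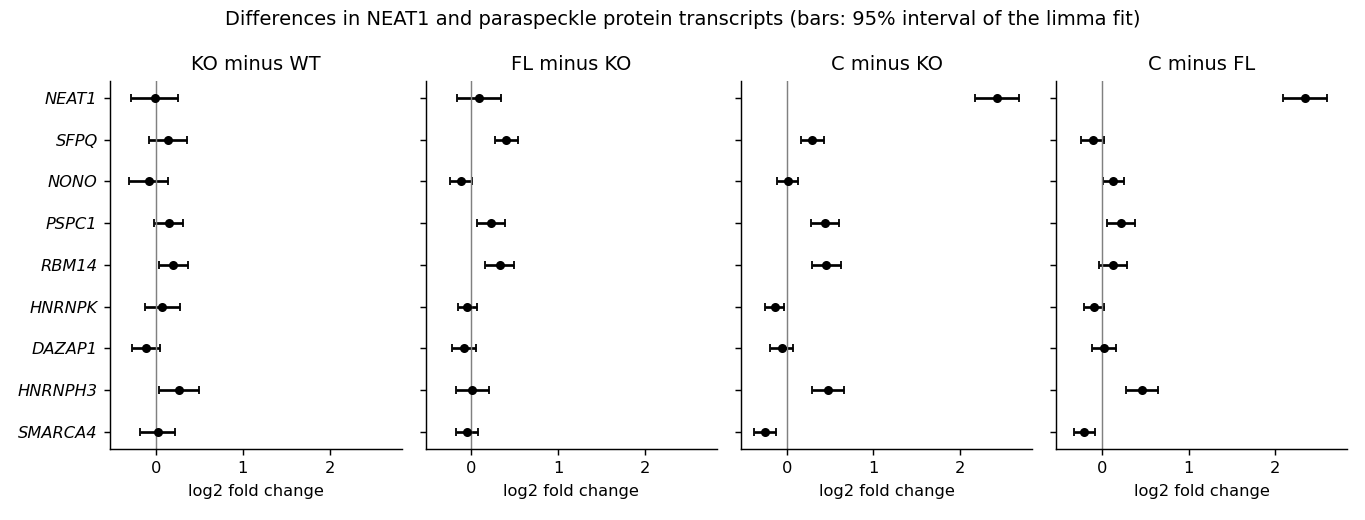
Log2 fold changes of NEAT1 and the 8 protein genes in the 4 comparisons, with bars for the 95% interval of the limma fit (2 libraries per group). NEAT1 is at 2.43 for C minus KO and 2.34 for C minus FL, and the protein genes lie between -0.25 and 0.48 in every panel.

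Between WT and KO, none of the 9 genes was called by limma (adjusted p from 0.152 to 0.94). An unadjusted p under 0.05 was found for 2 of the 9, RBM14 and HNRNPH3, and for 3673 of all 14736 genes. Of all 14736 genes tested there, 1.32% were called higher and 3.17% lower in KO, and 1.36% at 2-fold. HNRNPH3 TPM was 494 and 636 in WT and 699 and 777 in KO, a log2 difference of 0.26 (SE 0.10, adjusted p = 0.158). RBM14 TPM was 37.1 and 45.2 in WT and 52.9 and 50.0 in KO, a log2 difference of 0.20 (SE 0.07, adjusted p = 0.152). Both pairs were separate, with WT replicate 1, the library with the high mitochondrial share, the lowest of the 4 in TPM. The other 6 proteins had log2 differences from -0.11 for DAZAP1 to 0.15 for PSPC1, and the signs of DAZAP1 and NONO turned without scaling and that of SMARCA4 with quantile normalization. In simulated data, variances below the median of these libraries were raised to it. In each of 2 comparisons, 100 genes were changed by 0.5 and 100 by 1.5 on the log2 scale. Of these, 4% and 96% were called in WT against KO, and 23% and 100% in C against KO. Far fewer genes were changed there than were called in the measured C against KO, so these shares do not measure the sensitivity of that comparison.

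Of 34 other known paraspeckle proteins, 31 were tested and 7 rose and 2 fell with C against KO (21.1% and 15.1% of all tested genes), with a median log2 difference of -0.01 (0.05 over all tested genes). HNRNPH1 rose by 0.54 (SE 0.06) and its relative HNRNPF fell by 0.35 (SE 0.05) on the log2 scale. HNRNPH1 and HNRNPF kept these calls under all 15 alternatives. The number of genes that rose was 4 without KO replicate 4, without C replicate 1 or without C replicate 2, and 15 without scaling, and 1 gene fell without KO replicate 2. Against FL, 10 of these proteins rose and 6 fell with C (21.4% and 16.8% of all tested genes). Both numbers in that comparison were lower with some of the libraries left out, as were the calls over all genes. FL against KO gave no call, with 6 of the 31 at an unadjusted p under 0.05, beside 2534 of all 15924 tested genes.

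Of 21 tested proteins that make RNA 3′ ends, 5 rose and 7 fell with C against KO (21.1% and 15.1% of all tested genes), with a median log2 difference of -0.00233. PCF11, which links cleavage to release of RNA polymerase, rose from 22.0 and 22.4 TPM to 50.5 and 56.1 (log2 difference 1.10, SE 0.08, limma adjusted p = 8.4e-05), and FL lay between at 26.9 and 25.4. PAPOLA, the poly(A) polymerase, rose by 0.58 (SE 0.09). POP1, a subunit of the RNase P that cuts the long NEAT1 transcript, fell by 0.72 (SE 0.10), from 7.51 and 6.48 TPM to 4.58 and 4.40, and was lower than with FL as well (log2 difference -1.07, SE 0.10), where it stood at 9.14 and 9.16 TPM. Other RNase P subunits on the list did not fall in the same way (named after their values were seen). RPP30 was called higher with C than KO (log2 difference 0.23, SE 0.06), and RPP38 was not called (-0.09, SE 0.08). The CPSF1 and CPSF3 subunits of the cleavage complex fell while CSTF3 and WDR33 rose (named after their values were seen). Without C replicate 2, 3 genes rose, and without scaling 4 fell.

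Of 21 tested SWI/SNF subunits, 2 rose and 3 fell with C against KO (21.1% and 15.1% of all tested genes), and without scaling 5 rose and 1 fell. ARID1A, the DNA-binding subunit of one class of complex, fell by 0.46 (SE 0.08), from 15.2 and 14.4 TPM to 11.7 and 11.8. SMARCB1 (log2 difference -0.30, SE 0.07) and SMARCD2 (-0.24, SE 0.05) fell by less, and both lost their calls without KO replicate 2, SMARCB1 also without C replicate 2 and SMARCD2 also without C replicate 1. Both calls were also lost without scaling and with TPM rescaled without mitochondrial genes and SETD2. Without KO replicate 2, 1 subunit of the list fell. The 2 that rose were SMARCD3 and SS18 (named after their values were seen), and neither was called without C replicate 1 or without C replicate 2. In WT against KO, ARID1A alone of this list was called, higher in KO by 0.63 (SE 0.09, limma adjusted p = 0.0148). It lost that call without either KO replicate and with no filter on low TPM.

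None of 8 known transcriptional activators of NEAT1 rose with C against KO at this threshold, and 3 fell (21.1% and 15.1% of all tested genes). BRCA1 (log2 difference -0.29, SE 0.07), a DNA repair factor, and HSF1 (-0.20, SE 0.05), the heat shock factor, fell, and both calls were lost without KO replicate 2, without KO replicate 4 and without C replicate 2. Both were also lost without scaling and with TPM rescaled without mitochondrial genes and SETD2. The HSF1 call was lost as well with quantile normalization, with eBayes without trend and without C replicate 1. The hypoxia factors HIF1A (22.2 and 22.2 TPM in KO, 25.0 and 27.9 with C) and EPAS1 (10.1 and 8.86 in KO, 9.90 and 11.8 with C) were not called there, and were named after their values were seen. Against FL, where it stood at 7.64 and 8.17 TPM, EPAS1 was called higher with C (log2 difference 0.31, SE 0.10, limma adjusted p = 0.0498), a call that was lost without any 1 of the 6 libraries other than C replicate 1. The EPAS1 call was also lost with other pseudocounts, with no filter on low TPM, with quantile normalization, with eBayes without trend and in a fit of only the groups compared. In C against KO, 4 of the 8 were called higher without scaling. The unadjusted p there was under 0.05 for 4 of them, and for 7496 of all 15924 tested genes.

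Transcripts known to be held in paraspeckles or controlled through SFPQ were few. Of 6 listed, 5 were tested and 2 rose and 1 fell with C against KO (21.1% and 15.1% of all tested genes). CXCL8, among those that rose, passed the filter only through its C libraries, so nothing is read from this count. CXCL8, an inflammatory chemokine whose promoter SFPQ represses, was near the detection limit at 0.11 and 0.07 TPM in KO and 0.84 and 0.66 with C (log2 difference 1.02, SE 0.21, on a scale that understates changes of low genes), and it was not tested with a C library left out, since the filter then removed it. CARM1, an arginine methyltransferase that modifies NONO, fell by 0.45 (SE 0.07). NICN1 had a log2 difference of 0.30 (SE 0.10, limma adjusted p = 0.0407), and its call was lost when any single library of the 6 was left out. The NICN1 call was also lost with quantile normalization, with no filter on low TPM and in a fit of only the groups compared.

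**Figure D4:**
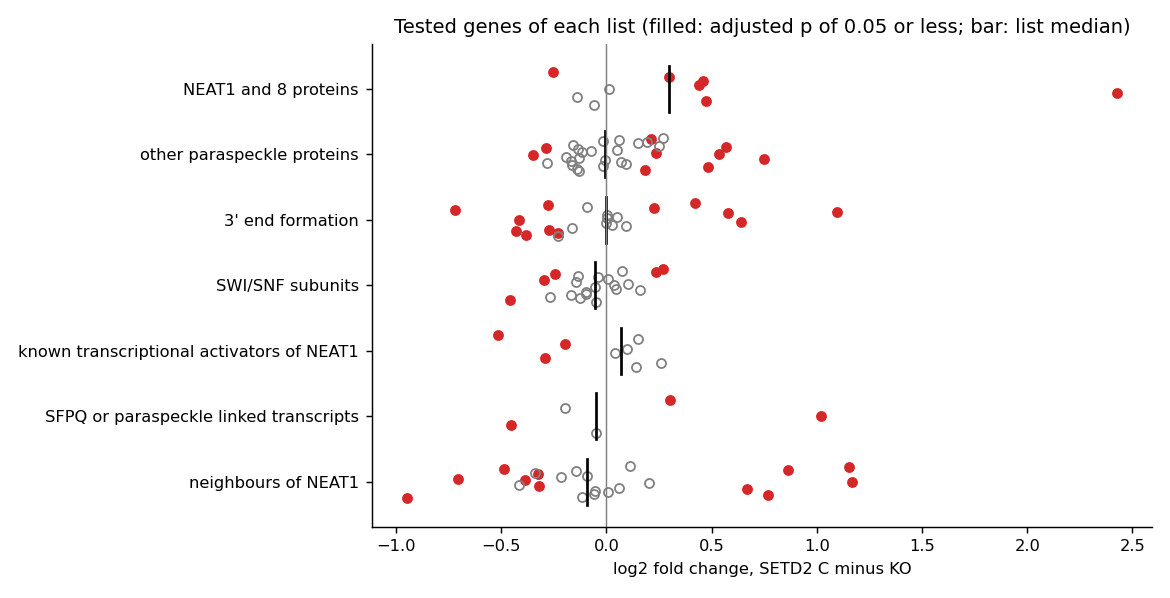
Log2 fold change, C minus KO, of the tested genes of each list, with filled points at an adjusted p of 0.05 or less, open points above it and a bar at each list's median. NEAT1 stands alone at 2.43, and the other lists spread to both sides of 0.

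NEAT1 was also set beside the genes around it. Of 52 annotated genes within 250000 bases, 40 were listed and 23 tested, of which 5 rose and 6 fell with C against KO (21.1% and 15.1% of all tested genes), with a median log2 difference of -0.09. The nearest tested gene upstream, FRMD8, 9249 bases away, fell by 0.32 (SE 0.07), and this call was lost without KO replicate 2, C replicate 1 or C replicate 2. The FRMD8 call was also lost without scaling and with TPM rescaled without mitochondrial genes and SETD2. The nearest tested gene downstream, 52100 bases away, was MALAT1, the other abundant nuclear lncRNA of this locus. MALAT1 rose from 38.0 and 29.5 TPM in KO to 68.3 and 103 with C (log2 difference 1.17, SE 0.18, limma adjusted p = 0.0025), and by 1.44 (SE 0.18) over the 28.4 and 27.8 of FL. Its 2 C libraries lay above the other 4. The lncRNA SSSCA1-AS1, 122942 bases downstream, rose from 0.96 and 1.04 to 3.03 and 3.20 TPM (1.15, SE 0.14). AP003068.2, 240940 bases upstream, was 1.08 (SE 0.18) above FL on the log2 scale. Of the neighbours that fell, AP000944.2 had a log2 difference of -0.95 (SE 0.13), PCNX3 of -0.71 (SE 0.08) and SSSCA1, from 66.2 and 66.4 TPM to 54.0 and 50.5, of -0.49 (SE 0.06), all named after their values were seen. The span of AP000944.2 overlaps POLA2 and CDC42EP2 on the same strand, and how reads were assigned among them was not tested. Reads of SSSCA1-AS1 and of SSSCA1 on the other strand cannot be told apart where strand was not used in counting, which is not given in the sources used here.

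Between WT and KO a single neighbour, EHBP1L1, was called (0.77, SE 0.14, adjusted p = 0.0385), as was LIN28B (0.46, SE 0.09, adjusted p = 0.0496), an RNA-binding protein whose transcript is on the list above. Both were named after their values were seen, and both calls were lost without WT replicate 1, without either KO replicate and with no filter on low TPM. The LIN28B call was also lost with a pseudocount of 0.1, with quantile normalization, with TPM rescaled without mitochondrial genes and SETD2, and with eBayes without trend. No paraspeckle protein, 3′ end factor or NEAT1 activator of the lists was called there by limma, with an unadjusted p under 0.05 for 8, 3 and 2 genes. Over all tested genes it was under 0.05 for 3673 of 14736. Some of the list calls in WT against KO changed when 1 library was left out, as did the number of calls over all genes. In FL against KO, none of the listed genes was called. There 8 of the 3′ end factors, 2 SWI/SNF subunits, 1 activator, 0 linked transcripts and 7 neighbours had an unadjusted p under 0.05. So did 2534 of all 15924 tested genes.

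The remaining lists were also counted for C against FL, where 21.4% of all tested genes were higher and 16.8% lower. Of the 3′ end factors 5 were higher and 8 lower, of the SWI/SNF subunits 1 and 4, of the activators 2 and 2, of the linked transcripts 2 and 1, and of the neighbours 5 and 6. CXCL8, which passed the filter only through its C libraries, is again among the linked transcripts counted as higher. The 2 comparisons share the C libraries, so their counts are not independent. Over all genes, too, fewer were called with 1 library left out, most so without a C or FL library. Nothing particular to a list is therefore read from its lower counts. Leaving out 1 library at a time moved these to between 3 and 4 higher and 5 to 8 lower for 3′ end factors, the lowest being without C replicate 2 or FL replicate 3 for the higher count and without FL replicate 4 for the lower. The activators called higher fell to 0 without FL replicate 3 or C replicate 2 and to 1 without any other library. For SWI/SNF subunits, 2 were lower without FL replicate 3 or FL replicate 4. The linked transcripts called higher fell to 1 without FL replicate 3, C replicate 1 or C replicate 2, and the one called lower was lost without FL replicate 4 or C replicate 2. The neighbours called lower were 3 without C replicate 2.

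The genes whose profile over the 6 libraries of the second table was closest to that of NEAT1 were ranked by the root mean square difference of centred log2 values, among the 12920 genes that reached 1 TPM in all of them. LOX, an enzyme that crosslinks collagen, was the closest (0.09), at 9.50 and 10.8 TPM in KO, 11.5 and 9.74 with FL and 57.9 and 68.0 with C. The lncRNA AC091182.1 (0.11) had a TPM of 2.60 and 2.63 in KO, 2.71 and 2.76 with FL and 15.0 and 16.5 with C. Next came CRABP2 (0.15), a carrier of retinoic acid, SLC2A3 (0.15), a glucose transporter, and ANXA1 (0.15), a phospholipid-binding protein. All 5 had FL near KO and C higher, by 2.25 to 2.54 on the log2 scale against KO. They were picked for this likeness, and it is a description over 6 libraries of 3 groups.

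**Figure D5:**
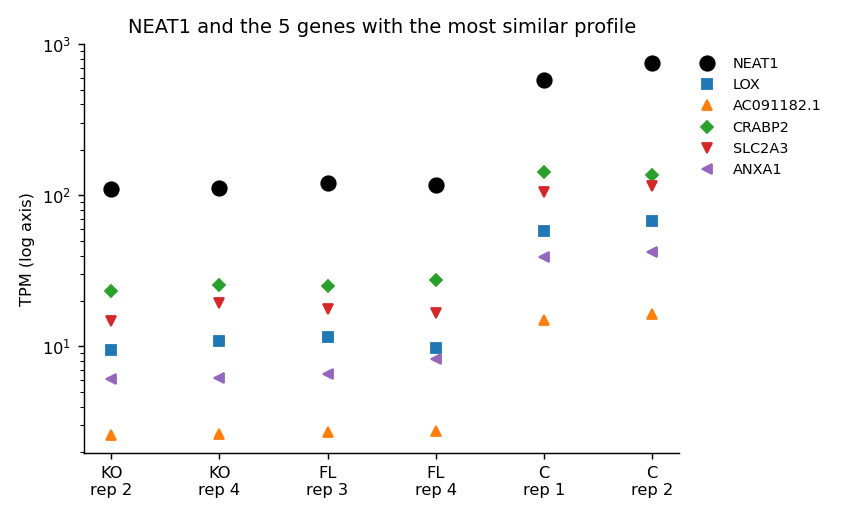
TPM of NEAT1 and the 5 genes with the most similar profile in the 6 libraries of the second table, on a log axis, with 1 symbol per gene. In every gene the 4 KO and FL libraries lie close together and the 2 C libraries lie above them.

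Several of these values rest on counting that cannot be separated fully. NEAT1 contains 4 annotated small RNA genes that lie within its exon, of which RF01957 and MIR612 were listed at 0 in all 10 libraries. RF01956, 105 nt long, was listed at 19.8 TPM in WT replicate 1 and 57.3 TPM in KO replicate 1 of the first table. It was at 0 in every other library, so its values differed within both groups. RF01955, 120 nt long, was listed at 0 and 18.6 TPM in KO, 0 and 0 with FL, and 26.5 and 99.6 with C. RBM14 overlaps the readthrough gene RBM14-RBM4 (1.29 to 2.67 TPM), and HNRNPK has processed copies of which HNRNPKP4 was listed at 1.66 to 6.80 TPM. These values are small beside those of RBM14 and HNRNPK.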

How the data were processed

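RNA-seq libraries were analysed in 10 samples, 2 per group and table. The authors aligned paired reads to GRCh38 with Ensembl 96 genes (STAR 2.6.1c and RSEM 1.3.0 in the submitters' processing notes) and deposited TPM per gene in 2 tables. TPM sums to the same total in each library, so depth and counting error are unknown, and a rise in abundant genes lowers all others. The 14 ChIP-seq samples were not analysed here.

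Identifiers were matched to GENCODE 44 (58472 of 58884). TPM was scaled by median ratios over protein-coding and lncRNA genes. Genes of these types that reached 0.5 TPM in 2 or more libraries entered limma 3.58.1 (R 4.3.3, eBayes with trend) as the log2 of scaled TPM plus 0.5, each table apart, with Benjamini-Hochberg adjustment over all genes tested. Fold changes on this scale understate changes of low genes. A single fit held all 6 libraries of the second table. The procedure was tested on simulated data.

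The genes named were NEAT1 and the 8 proteins, up to 3 tested genes of each list with the smallest p for SETD2 C against KO, list genes past a 2-fold change with a call, the nearest tested neighbours of NEAT1, and the 5 genes most like it. Some genes that this rule picks are not reported here. These 9 members and the lists were chosen with earlier results of these data known. Alternatives were pseudocounts of 0.1 and 1, other filters, no scaling, quantile normalization, rescaling without mitochondrial genes and SETD2, eBayes without trend, a fit of only the groups compared, a replicate block, and each library left out in turn.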

Additional observations from a re-analysis of the deposited data

Results flagged for a closer look

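RF01955, a small annotated RNA inside NEAT1 that was not among the tested gene types, was listed at 26.5 TPM in SETD2 C replicate 1 and 99.6 TPM in SETD2 C replicate 2, above both KO libraries of the second table (0 and 18.6 TPM), which is what drew attention to it. It is 120 nt long, shares its sequence with NEAT1, and the part that read assignment between the 2 genes played was not tested.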

How the results depend on the processing

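For WT against KO, none of the 9 genes was called under any of 13 alternatives, but signs near 0 turned. Without scaling, the log2 differences were 0.11 for NEAT1, 0.0432 for NONO and 0.0160 for DAZAP1. Rescaling without mitochondrial genes and SETD2 gave 0.000634 for NEAT1, and quantile normalization gave -0.0140 for SMARCA4. Leaving out 1 library gave -0.18 to 0.14 for NEAT1 and -0.0755 to 0.108 for SMARCA4.

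For FL against KO, SFPQ was called higher, 1 of the 9 genes in place of 0, when all libraries had to reach 1 TPM, without scaling, and with the rescaling. For C against KO the number of the 9 genes called lower went from 1 to 0 without scaling and with the rescaling, and ranged from 0 to 1 with a library left out. For C against FL, 5 of the 9 genes in place of 3 were called higher without scaling, and the number called lower went from 1 to 0 without scaling, with quantile normalization, with the rescaling and with eBayes without trend, and ranged from 0 to 1 with a library left out. The cause was not tested.

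WT and KO share only the numbers 1 and 2. With the replicate block, 439 genes were higher and 825 lower in KO against 194 and 467 without it, and 0 of the 9 genes were called. Deviations of libraries with the same number correlated at 0.15 (with 2 pairs, crossed numbers give -0.15 by construction). No paired analysis was possible in the second table because its groups share fewer than 2 replicate numbers. Over all genes, WT against KO gave 20 higher and 66 lower with no filter on low TPM, 119 and 294 without trend, 411 and 359 without scaling, and from 31 to 469 higher and 125 to 763 lower with a library left out. C against KO gave 5505 and 1115 without scaling and 4578 and 1472 with the rescaling, against 3356 and 2404, and C against FL gave 5188 and 1508 without scaling, against 3408 and 2676. With a library left out, C against KO gave at least 1733 and 1330, and C against FL at least 1865 and 1569, both without C replicate 2. FL against KO gave 3 and 0 with no filter, 10 and 0 without trend, 47 and 11 without scaling, and 57 and 4 with the rescaling, against 28 and 5, and from 2 to 16 higher and 0 to 7 lower with a library left out. Without scaling the median of all genes was 0.18 for C against KO and 0.16 for C against FL. With 1 library left in a group, it was assumed to vary like the others. TPM sets no depth limit that could be computed.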

Other observations

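The KO libraries of the 2 tables, which carry different batch labels, stood at unequal levels for several of these genes. SFPQ was at 798 and 875 TPM in KO of the first table and at 167 and 151 in KO of the second, NONO at 1159 and 1083 against 582 and 546, and NEAT1 at 57.1 and 58.4 against 110 and 112. No test was made across the tables.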
